A study of Mus musculus with 8 samples.

Results

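The genes described here are the galectin family members Lgals1, Lgals3, Lgals8 and Lgals9 and the gene for the galectin-3 binding protein, Lgals3bp, 5 of the 35583 genes in the count table, taken by symbol. Their transcripts were measured by bulk RNA sequencing of microglia. The cells were sorted from the hypothalamus, the mice were young and wild-type, and 20 hours had passed since plasma protein carrying a dye was injected. The 8 libraries were 4 of plasma-positive microglia, which carried the dye, and 4 of plasma-negative microglia, which did not. Both groups share the genotype, the injection and the sort, and no uninjected group is among the samples analysed here. The labels name neither the dye nor the sort markers, the exact age, or the number of animals behind a library, and do not say whether libraries with equal numbers share an animal. The p-values below therefore measure the spread between these libraries, which may be technical. The comparison asks how the microglia that held labelled protein differ from those that did not. The 5 genes were selected on the measured difference between these same plasma-positive and plasma-negative libraries, so their values are a description without a test.

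Galectins are small soluble lectins that bind beta-galactoside sugars on glycoproteins and glycolipids. They are made in the cytosol, leave the cell by a route that does not use the classical secretory pathway, and act both outside the cell, where they cross-link glycoproteins, and inside it, where they bind sugars exposed on damaged endosomes and lysosomes. Lgals1 encodes a galectin with a single sugar-binding domain that forms dimers. Lgals3 encodes the chimera-type galectin, with 1 sugar-binding domain and a flexible proline- and glycine-rich tail, and is a known marker of activated microglia and of many macrophages. Lgals8 and Lgals9 encode tandem-repeat galectins, with a pair of different sugar-binding domains. Lgals3bp encodes a secreted glycoprotein with a scavenger receptor cysteine-rich (SRCR) domain that binds galectins and is known to be induced by interferons.

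Total counts ranged from 2963094 in plasma-negative replicate 4 to 21422738 in plasma-negative replicate 1. All 9 microglial markers used, P2ry12, Tmem119 and Cx3cr1 among them, were detected. They summed to between 49364 and 56245 CPM (counts over library sizes that TMM adjusted, the unit of levels below) in plasma-negative and between 54335 and 57791 CPM in plasma-positive libraries, and 8 of the 9 had a log2 difference above 0. Cx3cr1, the fractalkine receptor, was the exception, at 11179 to 12272 CPM in plasma-negative and 10412 to 11116 CPM in plasma-positive libraries, and was not called. Csf1r, a growth factor receptor of microglia, and Olfml3, a secreted protein, were called higher by edgeR (log2 differences of 0.28 and 0.37, adjusted p = 0.0049 and 0.00647). Plasma-positive replicate 3 stood apart in genes of blood myeloid cells. The 13 markers of monocytes and neutrophils summed to 1026 CPM in it, against 0.673 to 19.9 CPM in the other 7 libraries. Ngp, S100a8 and S100a9, which encode neutrophil granule and cytosol proteins, gave 430, 300 and 171 CPM of that sum, while the monocyte receptor Ccr2 and the neutrophil marker Ly6g were at 0 counts in that library. The differences of the 4 fitted members and the bound for Lgals3 are given below with and without it.

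Levels can be set side by side between genes only per length, in the deposited RPKM (reads per kilobase of exon, scaled to sequencing depth). In plasma-negative microglia Lgals9 was the highest of the 5, at 90.8 ± 8.1 RPKM, followed by Lgals3bp at 45.0 ± 6.9, Lgals8 at 14.2 ± 2.0 and Lgals1 at 0.972 ± 0.828 (mean ± SD, n = 4). Lgals3 was listed at 0 in all 4 of these libraries. No library of one gene reached those of its neighbour in this order. In plasma-positive microglia the order of the means was the same, with Lgals9 at 135 ± 26 RPKM, Lgals3bp at 93.1 ± 2.9, Lgals8 at 18.8 ± 7.5, Lgals1 at 5.80 ± 7.39 and Lgals3 at 3.08 ± 2.73 (mean ± SD, n = 4). There the ranges of Lgals8 and Lgals1 overlapped, as did those of Lgals1 and Lgals3. The order was also the same with counts per kilobase scaled by TMM library sizes.

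**Figure D1:**
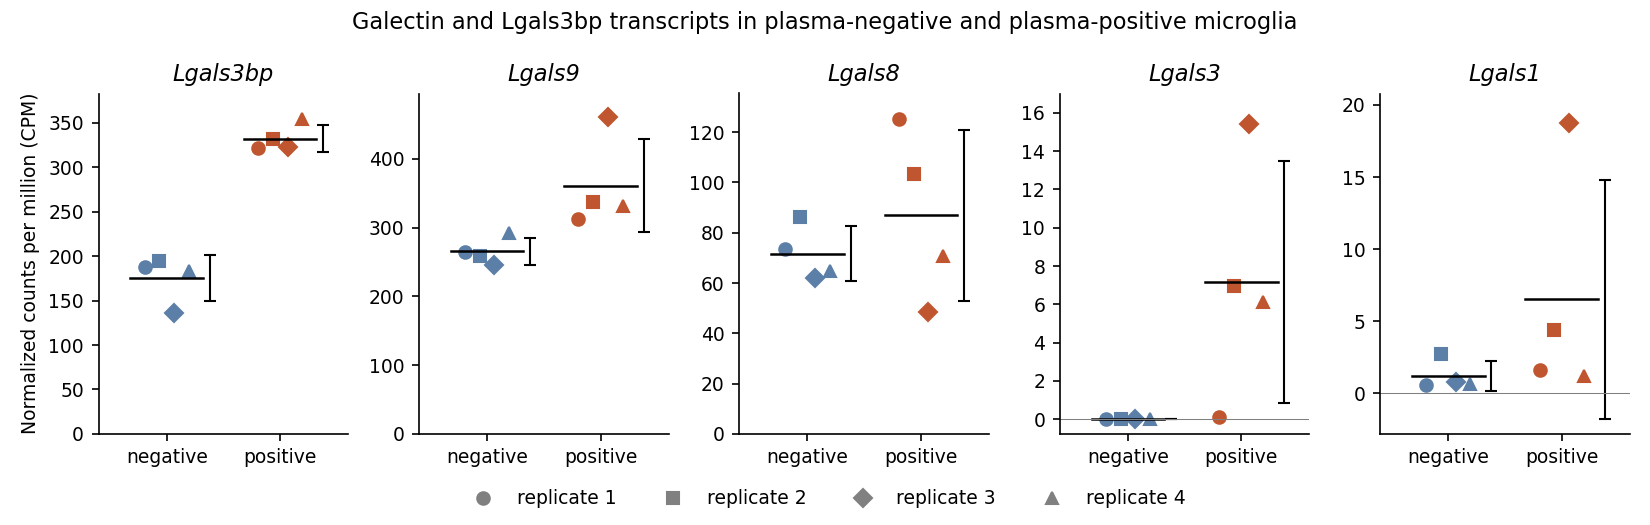
Each panel plots the normalized CPM of 1 gene in the 4 plasma-negative (blue) and 4 plasma-positive (orange) libraries, with a symbol for each replicate number, a black line at the mean and a bar for the SD. Lgals3bp and Lgals9 show no overlap between groups, Lgals8 and Lgals1 overlap, and Lgals3 is at 0 in all plasma-negative libraries and at 0.11 to 15.4 CPM in plasma-positive ones.

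Lgals3bp (ENSMUSG00000033880, mm10 chromosome 11, 118392751 to 118402092, minus strand, protein-coding) was higher in every plasma-positive library. It was at 187, 194, 137 and 183 CPM in plasma-negative replicates 1 to 4, and at 321, 332, 322 and 354 CPM in plasma-positive replicates 1 to 4. The groups were 127 CPM apart at their nearest libraries, and the 4 plasma-positive values were within a narrow band, with an SD of 15.1 CPM around a mean of 332. Plasma-negative replicate 3 was the lowest library. The fit over all genes gave a log2 difference of 0.92 with an SE of 0.13, a 1.90-fold higher level. It was between 0.82 and 0.98 when any 1 library was left out, and 0.94 without plasma-positive replicate 3.

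Lgals9 (ENSMUSG00000001123, mm10 chromosome 11, 78962974 to 78984946, minus strand, protein-coding) had the highest level and a smaller difference. Plasma-negative replicates 1 to 4 held 264, 259, 246 and 292 CPM, and plasma-positive replicates 1 to 4 held 313, 337, 461 and 332 CPM. The groups did not overlap, and their nearest libraries, plasma-positive replicate 1 and plasma-negative replicate 4, were 20.8 CPM apart. Plasma-positive replicate 3, the library with the neutrophil transcripts, was the highest. The log2 difference was 0.44 with an SE of 0.13, or 1.36-fold, and 0.31 without that library. The nearest libraries are the same without it, so the groups did not overlap then either.

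The 250 bases before the RefSeq start sites of both genes (GRCm38.p6) run from inside the gene spans given above to beyond them. They are shown because these are the members whose groups did not overlap with counts in every library, and because both genes are known interferon targets. They were searched on both strands for the letters AANNGAAA, the core bound by interferon regulatory factors, and for a tandem form, GAAA, any 2 bases and GAAA again, whose matches always hold the shorter motif too. Capitals mark the matches, and both windows are printed 5′ to 3′ on the gene's own strand, chr11:118401960-118402209 for Lgals3bp and chr11:78984925-78985174 for Lgals9.
Lgals3bp: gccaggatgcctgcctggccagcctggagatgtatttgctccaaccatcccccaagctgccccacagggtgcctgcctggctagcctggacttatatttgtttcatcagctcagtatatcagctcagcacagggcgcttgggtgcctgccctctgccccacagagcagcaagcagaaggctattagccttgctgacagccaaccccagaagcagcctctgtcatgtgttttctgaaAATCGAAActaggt
Lgals9: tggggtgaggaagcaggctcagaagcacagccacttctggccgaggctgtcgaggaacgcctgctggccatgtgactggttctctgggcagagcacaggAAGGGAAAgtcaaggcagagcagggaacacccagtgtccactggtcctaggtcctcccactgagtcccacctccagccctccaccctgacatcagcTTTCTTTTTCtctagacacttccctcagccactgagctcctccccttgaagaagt

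The Lgals3bp window held 1 match of AANNGAAA, ending 7 bases before the start site. The Lgals9 window held a match of AANNGAAA ending 144 bases before the start site, and a match of the tandem form on the other strand ending 46 bases before it. Among the 32851 windows of that length in the table, 21.3% held AANNGAAA and 2.98% held the tandem form on either strand. The windows of Lgals3 and Lgals8 held neither. A window was found for 4 of the 5 genes, all but Lgals1. These matches describe letters in the reference and carry no measure of binding.

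Lgals8 (ENSMUSG00000057554, mm10 chromosome 13, 12439415 to 12464944, minus strand, protein-coding), whose product is known for marking damaged vesicles, overlapped between groups. Plasma-negative replicates 1 to 4 held 73.4, 86.2, 61.8 and 64.9 CPM, and plasma-positive replicates 1 to 4 held 125, 103, 48.6 and 70.7 CPM. Plasma-positive replicates 1 and 2 lay above all plasma-negative libraries, while replicate 3, with the neutrophil transcripts, was the lowest of all 8. The log2 difference was 0.28 with an SE of 0.27. It was 0.05 without plasma-positive replicate 1 and 0.48 without plasma-positive replicate 3. Of its exon bases, 155 are shared with Heatr1 on the other strand, and reads there cannot be assigned to either gene where strand was not used in counting.

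Lgals3 (ENSMUSG00000050335, mm10 chromosome 14, 47367751 to 47386160, plus strand, protein-coding) was seen in plasma-positive libraries and had 0 counts in each plasma-negative one. Plasma-positive replicates 1 to 4 held 1, 137, 304 and 55 counts, or 0.110, 6.96, 15.4 and 6.14 CPM. Plasma-positive replicate 1 was thus at or under the floor of 3 counts, and 3 of 4 libraries were above it. Against that floor, taken per plasma-negative library, the mean was at least 19.0-fold higher. The bound was 11.7-fold without plasma-positive replicate 3 and 43.3-fold without plasma-negative replicate 4, the shallowest library, in which 3 counts equal 1.01 CPM. Lgals3 did not pass the expression filter and has no value in the fit. In bulk libraries, a transcript from a few cells and a low level in all cells cannot be told apart.

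Lgals1 (ENSMUSG00000068220, mm10 chromosome 15, 78926725 to 78930465, plus strand, protein-coding) was low in all libraries but one. Plasma-negative replicates 1 to 4 held 13, 44, 14 and 2 counts, or 0.576, 2.77, 0.815 and 0.673 CPM. Plasma-positive replicates 1 to 4 held 15, 87, 370 and 11 counts, or 1.65, 4.42, 18.8 and 1.23 CPM. The groups overlapped, since 2 plasma-positive libraries lay below plasma-negative replicate 2. The log2 difference was 2.40 with an SE of 1.06, and 0.996 without plasma-positive replicate 3.

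Among the 4 members that passed the filter, 1, Lgals3bp, was called higher by edgeR at an adjusted p under 0.05 and none was called lower. Over all 13277 tested genes, 1.41% were called, 0.844% higher and 0.565% lower. Of the same 4 members, 2 had groups that did not overlap with the plasma-positive one higher, which held for 5.68% of all tested genes, and 10.3% had groups that did not overlap in either direction. As the members were chosen by this contrast, nothing is read from these counts. All 4 differences were above 0, beside a median of 0.01 over all tested genes. The members have merged exon lengths of 903 (Lgals1) to 3688 bases (Lgals8), against a median of 3976 for tested genes. With a correction for exon length in each library, the log2 differences were 0.82 for Lgals3bp, 0.35 for Lgals9, 0.19 for Lgals8 and 2.37 for Lgals1.

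**Figure D2:**
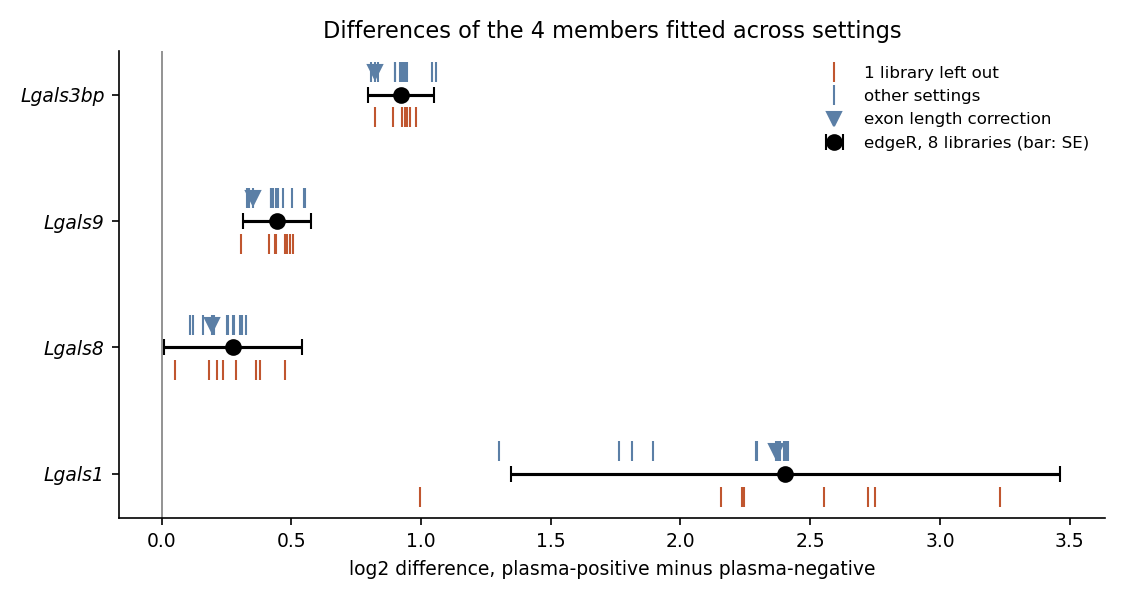
The horizontal axis is the log2 difference between plasma-positive and plasma-negative microglia for the 4 members in the fit. Black points are edgeR on all 8 libraries with the SE, orange ticks are fits with 1 library left out, blue ticks are other settings and the blue triangle is the exon length correction. Lgals3bp stayed between 0.81 and 1.06, while Lgals1 ran from 0.996 to 3.23.

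Of 7 further genes of the family, 6 were in the tables. Lgals7, Lgals12 and Grifin, known from skin, fat and lens, had 0 counts in all 8 libraries. Lgals2 had 24 and 27 counts in plasma-positive replicates 1 and 3 and 0 in the other 6 libraries. Lgals4, an intestinal galectin, had 0 to 20 counts, with 0.697 ± 0.491 CPM in plasma-negative and 0.728 ± 1.017 CPM in plasma-positive microglia (SD, n = 4). Lgalsl, a galectin-like gene, was at 3.82 ± 3.66 and 9.73 ± 4.85 CPM (SD, n = 4), with overlapping groups. Neither of these 2 was called (edgeR adjusted p = 0.989 for Lgals4 and 0.501 for Lgalsl).

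The galectin values were set beside the markers of other cells in the same libraries. Lgals3, Lgals1 and Lgals9 all peaked in plasma-positive replicate 3, where the monocyte and neutrophil markers summed to 1026 CPM. In plasma-positive replicates 1, 2 and 4 those markers summed to 9.68, 8.44 and 8.60 CPM, within the plasma-negative range, and Lgals3 was at 0.110, 6.96 and 6.14 CPM there. Markers of neurons were highest in plasma-positive replicate 2, at 246 CPM against 2.69 to 62.3 CPM elsewhere, as were those of oligodendrocytes, at 407 against 59.2 to 156 CPM. Pomc, of the neuron list, was at 0 counts in each plasma-negative library and at 19, 21, 134 and 101 counts in plasma-positive replicates 1 to 4, and Mal, of the oligodendrocyte list, had 0 to 4 counts and 67, 535, 50 and 23 counts. Both were called higher (edgeR adjusted p = 0.0346 for Pomc and 0.0325 for Mal), having passed the filter through the plasma-positive group, and the calls remained in 0 and 2 of 8 fits with a library omitted. Lgals3 and Lgals1 had their next-highest values in that library. Of the 9 border macrophage markers, Siglec1, Cd163, Lyve1 and F13a1 were at 0 counts in all libraries. Their sum, almost all from Stab1, was 208 to 267 CPM in plasma-negative and 180 to 238 CPM in plasma-positive libraries, and the sum says little of the others. Mrc1, a scavenger receptor of these cells, was at 1.90, 0, 0 and 2.36 CPM in plasma-negative replicates 1 to 4 and at 1.76, 12.1, 1.42 and 15.3 CPM in plasma-positive ones (edgeR log2 difference 2.93, adjusted p = 0.429). Sums of endothelial markers were 27.3 to 52.5 and 18.7 to 64.7 CPM, and those of mural cells and fibroblasts 0 to 4.03 and 0 to 17.6 CPM, the latter highest in plasma-positive replicate 3. Astrocyte and tanycyte markers summed to 214 to 327 and 208 to 296 CPM, most of it from Slc1a3, a glutamate transporter, with means of 238 and 185 CPM. The other 3 tested genes of that list had higher means in plasma-positive microglia, with 3.60 and 22.6 CPM for Slc1a2, 5.79 and 17.6 CPM for Aldoc and 0.670 and 3.48 CPM for Gja1, each highest in plasma-positive replicate 2, and none was called (edgeR adjusted p = 0.298 to 0.608). Lymphocyte markers summed to at most 1.83 CPM. The part of these other cells in the galectin values was not tested.

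**Figure D3:**
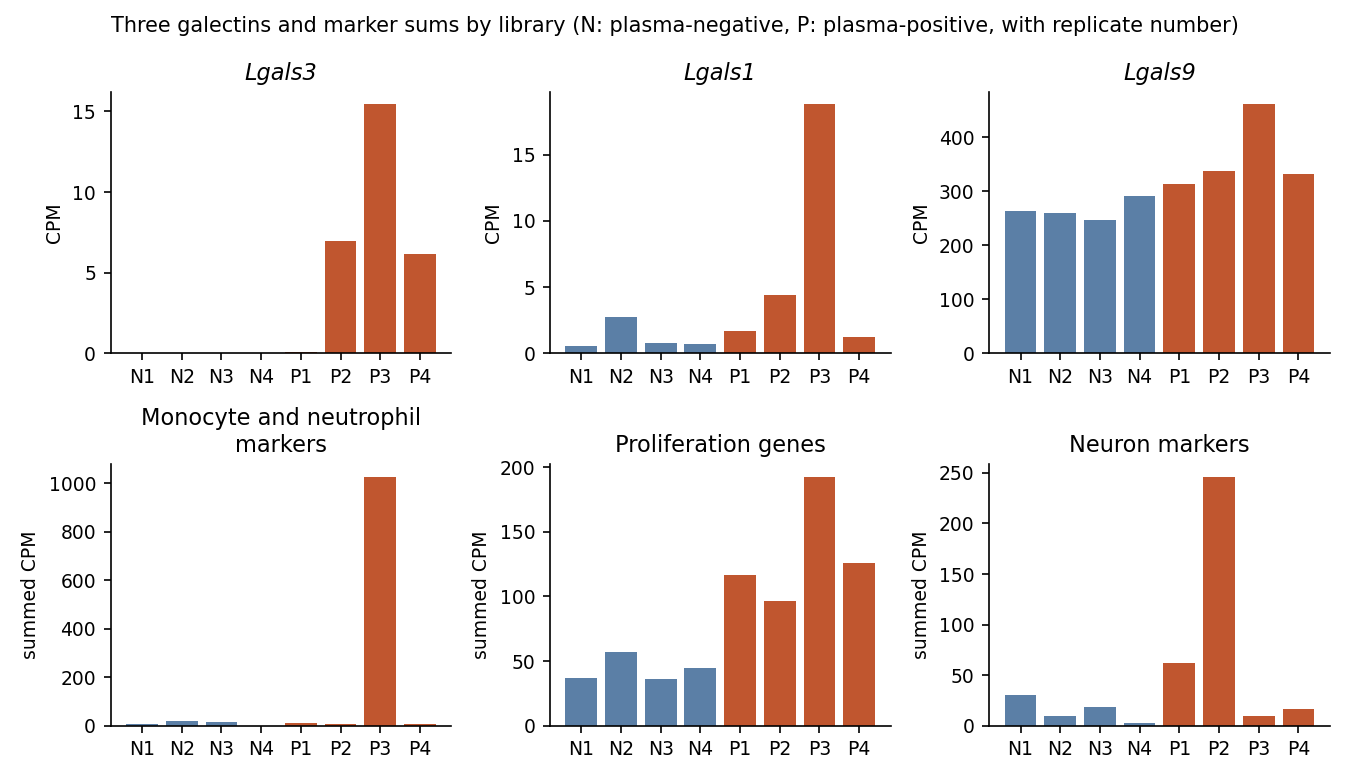
Bars are normalized CPM of Lgals3, Lgals1 and Lgals9 (top) and the summed CPM of 3 gene lists (bottom) in each library, blue for plasma-negative and orange for plasma-positive. Plasma-positive replicate 3 has the highest bar for all 3 galectins, for the monocyte and neutrophil markers (1026 CPM) and for the proliferation genes (193 CPM), while the neuron markers peak in plasma-positive replicate 2.

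Galectins act through the sugars they bind, so the proteins reported to carry those sugars were counted next. Of 21 tested genes for galectin-binding glycoproteins, 1 was called higher and none lower, beside 1.41% called over all tested genes. The median log2 difference was 0.02, with 11 of the 21 above 0. The gene called was Lamp1, a heavily glycosylated protein of the lysosomal membrane. It was at 1369 ± 175 CPM in plasma-negative and 1869 ± 57 CPM in plasma-positive microglia (SD, n = 4). The log2 difference was 0.45 (SE 0.09), and edgeR gave an adjusted p of 0.0259. Its groups did not overlap, but its call remained in 2 of 8 fits with a library omitted, those without plasma-negative replicate 2 or 4, and was lost with the exon length correction. Bsg, a membrane glycoprotein also called basigin, was at 624 ± 22 and 706 ± 39 CPM, and Vsir, an immune checkpoint receptor that binds galectin-9, at 2044 ± 82 and 1865 ± 98 CPM (SD, n = 4). Neither was called (edgeR adjusted p = 0.318 and 0.352).

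None of 29 tested enzymes and transporters that build or cap the galectin-binding sugars was called in edgeR, and their median log2 difference was -0.0029, with 13 above 0. The sialyltransferase genes St3gal5 and St3gal6, the highest of the list per length, were at 286 ± 52 and 336 ± 35 CPM and at 638 ± 24 and 616 ± 74 CPM (SD, n = 4; edgeR adjusted p = 0.518 and 0.881). None of 39 tested genes of the response to damaged lysosomes, in which galectins recruit autophagy receptors, was called either. Their median was -0.03, with 19 of the 39 above 0. The highest of this list per length were the autophagy gene Gabarap and the autophagy receptor Sqstm1. Gabarap was at 210 ± 22 and 264 ± 5.1 CPM and Sqstm1 at 248 ± 32 and 304 ± 58 CPM (SD, n = 4, edgeR adjusted p = 0.184 and 0.417). DESeq2 called 3 genes in the first of these lists and 2 in the second. At an unadjusted p under 0.05, 5 of 29 and 5 of 39 genes of these 2 lists passed in edgeR, beside 13.8% of all tested genes. The same count was 7 of 21 for the galectin-binding glycoproteins, with Lamp1, Lag3, P4hb and Bsg higher and Mertk, Cd33 and Vsir lower.

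Lgals3bp belongs to the SRCR domain family. Of 12 other genes of that family, 6 had 0 counts in all libraries, Cd163 and Marco among them, and 2 were tested. Loxl3, a lysyl oxidase-like enzyme, ran from 23.1 to 45.1 CPM in plasma-negative and from 32.5 to 40.6 CPM in plasma-positive libraries. The scavenger receptor Msr1 ran from 0 to 2.39 and from 0 to 1.68 CPM. Neither was called (edgeR adjusted p = 0.951 and 0.910).

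Interferon-stimulated genes, to which Lgals3bp and Lgals9 are often counted, had a median log2 difference of 0.49 over 27 tested genes, with 20 above 0. Of these, 1 was called higher and none lower, beside 1.41% called over all tested genes. An unadjusted p under 0.05 in edgeR was reached by 6 of 27, beside 13.8% of all tested genes. Ifitm3, which encodes an endosomal antiviral membrane protein, was at 3.67, 3.40, 2.62 and 11.8 CPM in plasma-negative replicates 1 to 4 and at 34.7, 22.8, 54.2 and 41.6 CPM in plasma-positive ones. The log2 difference was 2.94 (SE 0.52), and edgeR gave an adjusted p of 0.0196. With a library omitted, the call remained in 2 of 8 fits, those without plasma-negative replicate 4 or plasma-positive replicate 2. Bst2, which tethers virus particles, was at 62.4 ± 9.5 and 88.0 ± 2.9 CPM and Ifi35 at 40.0 ± 8.7 and 46.7 ± 11.4 CPM (SD, n = 4; edgeR adjusted p = 0.199 and 0.764).

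Lgals3 and Lgals3bp are often named among genes induced in disease-associated microglia. Of 15 other tested genes of that state, 3 were called higher and none lower. The median log2 difference was 0.88 with all 15 above 0. An unadjusted p under 0.05 in edgeR was reached by 8 of the 15. Over all tested genes, the shares were 1.41% called and 13.8% under that unadjusted p. The 3 called were Apoe, the lipid carrier, Ctsb, a lysosomal protease, and Cd63, a tetraspanin of late endosomes. Ctsb was at 3023 ± 101 and 4088 ± 282 CPM (SD, n = 4; edgeR adjusted p = 0.0049). Apoe was between 18.8 and 93.8 CPM in plasma-negative and between 390 and 631 CPM in plasma-positive libraries (edgeR, adjusted p = 0.00265). Cd63 was at 152 ± 24 CPM in plasma-negative and 236 ± 23 CPM in plasma-positive microglia (SD, n = 4). Its log2 difference was 0.64 (SE 0.14), edgeR gave an adjusted p of 0.0452, and the call remained in 1 of 8 fits with a library omitted, that without plasma-negative replicate 4. It was also lost with relative log expression scaling, library totals only, the replicate block, the length correction and limma on RPKM. Ctsl, another lysosomal protease, and Cd9, a tetraspanin, had log2 differences of 0.44 and 0.14 (edgeR adjusted p = 0.0645 and 0.542).

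Genes of the cell cycle were set beside Lgals3. Their sum was 36.9, 57.1, 36.0 and 44.4 CPM in plasma-negative replicates 1 to 4 and 117, 96.7, 193 and 126 CPM in plasma-positive ones. It was highest in plasma-positive replicate 3, as was Lgals3, while plasma-positive replicate 1 had a sum above all plasma-negative libraries with 1 count of Lgals3. Of the 16 genes looked for, 9 passed the expression filter, and 8 of the 9 had a log2 difference above 0. EdgeR called 3 of the 9 higher, Top2a, Ccnb2 and Cdc20, beside 0.844% called higher over all tested genes. Ccnb2 and Cdc20 had 0 counts in every plasma-negative library and Top2a had 2 counts in 1 of them, so these 3 passed the filter only through the plasma-positive group, and nothing is read from the count. Top2a, a topoisomerase of dividing cells, ran from 4.69 to 13.6 CPM in plasma-positive libraries. Ccnb2, a mitotic cyclin, was at 18.8 CPM in plasma-positive replicate 3 and at 5.72 to 6.26 CPM in the other 3, and was not called without that library, when 2 genes of the list were called. Ccna2 and Tyms had log2 differences of 1.46 and 0.29 (edgeR adjusted p = 0.168 and 0.786). They had counts in all 8 libraries, as had Cdk1 and Pclaf. Pclaf was not higher in plasma-positive microglia. It was at 2.92, 4.09, 4.77 and 0.673 CPM in plasma-negative replicates 1 to 4 and at 0.990, 2.19, 1.12 and 1.68 CPM in plasma-positive ones.

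**Figure D4:**
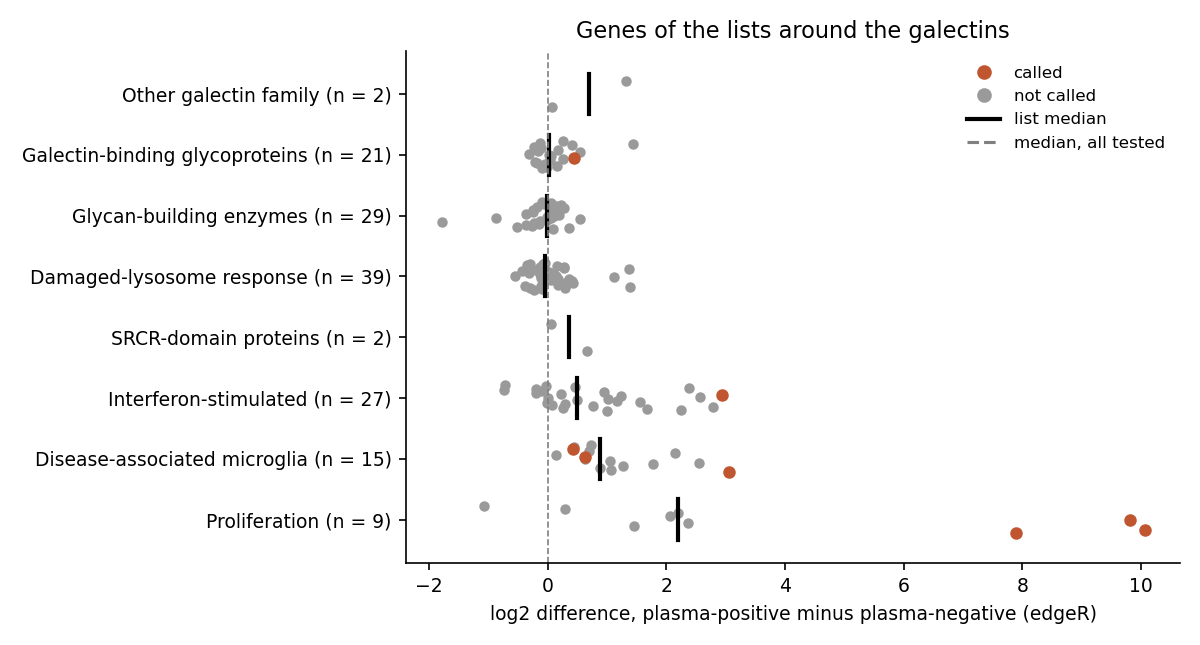
Each point is a tested gene of 1 of 8 lists, placed by its log2 difference between plasma-positive and plasma-negative microglia, with called genes in orange, list medians as black bars and the median of all tested genes (0.01) as a dashed line. The sugar-building and damaged-lysosome lists centre on the dashed line with no called gene, while the disease-associated list lies to its right with a median of 0.88.

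The genes with profiles most like each member were taken over the 8 libraries, by the root mean square difference of log2 CPM after each gene was centred on its own mean. The comparison covered 8889 other genes with a mean of at least 10 CPM, which Lgals1 and Lgals3 did not reach. The nearest genes lie under the median by construction. The measure also includes the contrast by which the members were chosen, so the likeness is a description only. Nearest to Lgals3bp were Prdx5, an antioxidant enzyme, Rab5c, a GTPase of early endosomes, and Snx3, a sorting nexin of endosomes, at 0.119, 0.125 and 0.134, against a median of 0.630 over all genes compared. Their log2 differences were 0.79, 0.75 and 0.71, beside 0.92 for Lgals3bp. Like Lgals3bp, Prdx5 was lowest in plasma-negative replicate 3, at 81.4 CPM, and lay between 207 and 217 CPM in the plasma-positive libraries. Nearest to Lgals9 were Psmb4, a proteasome subunit, Bcl2a1b, a relative of the survival factor Bcl2, and Mrps7, a mitochondrial ribosomal protein, at 0.0793, 0.113 and 0.114, against a median of 0.486. Nearest to Lgals8 were Atg7, an autophagy enzyme, Etfrf1, which acts on mitochondrial electron transfer, and Psmd13, a proteasome subunit, at 0.142, 0.159 and 0.162, against a median of 0.576. Atg7 shared the order of Lgals8 among plasma-positive libraries, with 46.9, 43.3, 22.9 and 28.9 CPM in replicates 1 to 4. Between members the measure was 0.328 for Lgals3bp and Lgals9, 0.535 for Lgals3bp and Lgals8 and 0.543 for Lgals8 and Lgals9. Lgals9 ranked 376th among the 8889 genes by likeness to Lgals3bp, and Lgals3bp ranked 1852nd by likeness to Lgals9.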

How the data were processed

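The deposited count table gives whole-number read counts per gene and library, and the deposited RPKM table gives reads per kilobase of exon scaled to depth for the same libraries, per the file headers. The submitters' processing notes name bcl2fastq, Trim Galore, STAR, HTSeq and mm10. Settings, strand handling and versions are not given in the sources used here. Libraries were made with Smart-seq2, per the labels' protocols, without molecular identifiers, so floors cover counting error only.

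Counts were fitted with edgeR 4.0.16 in R 4.3.3 (TMM, default filter by group, quasi-likelihood F test, Benjamini-Hochberg over all 13277 tested genes, called at adjusted p under 0.05). SEs are the log2 difference over the square root of F. Limma 3.58.1 and DESeq2 1.42.0 served as alternatives. Exon lengths came from GENCODE M21, which held 35546 of the 35583 genes (99.9%), and the length correction was a loess per library (span 0.3). Promoter windows came from RefSeq. On simulated counts over 12898 genes, 124 of 192 genes changed by 2 on the log2 scale were called by edgeR, all with the right sign, with 4 false calls.

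Members and lists were chosen with earlier results of these data known. Named were all members, the other family genes, up to 4 called genes per list by p and then the 2 highest uncalled ones per length, and the 3 nearest profiles per member. Genes named beyond that rule, such as markers, were chosen after their values were seen. A marker of the microglial list is not reported here and is not in its sum.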

Additional observations from a re-analysis of the deposited data

Results flagged for a closer look

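In 44 groups of 4 libraries (the CPM of each member and the summed CPM of each list, in each group), 9 values stood far from the other 3 of their group, where chance gives about 5% of groups. In the lymphocyte sums the other 3 libraries are at 0, so any count gives such a gap, and those 2 values cannot be set against that rate. Of the members, Lgals9 was at 461 CPM in plasma-positive replicate 3, against 337 CPM in the nearest library, and Lgals1 was at 2.77 CPM in plasma-negative replicate 2, against 0.815 CPM. The other values are sums over marker lists. Plasma-positive replicate 3 had 1026 CPM of monocyte and neutrophil markers, against 9.68, and 1.83 CPM of lymphocyte markers, against 0. Plasma-positive replicate 2 had 296 CPM of astrocyte and tanycyte markers, against 221, and 54335 CPM of microglial markers, the lowest of its group, against 57614. Plasma-negative replicate 4, the shallowest library, had 56245 CPM of microglial markers, against 50187. Plasma-negative replicate 1 had 4.03 CPM of mural and fibroblast markers, against 0.175, and 0.0886 CPM of lymphocyte markers, against 0, from 2 counts of Cd79a, under the floor of 3 counts.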

How the results depend on the processing

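The differences of the 4 fitted members were above 0 in every setting run. The sign for Lgals3, at 0 in all plasma-negative libraries, could not turn. The order of their levels was the same per kilobase of TMM-scaled counts. Lgals3bp ran from 0.81 to 1.06, Lgals9 from 0.31 to 0.55, Lgals8 from 0.05 to 0.48 and Lgals1 from 0.996 to 3.23. The call of Lgals3bp was lost with limma on RPKM at either pseudocount and with the length correction and replicate block together, and DESeq2 also called Lgals9. Nothing is read from these calls, as the members were chosen by this contrast. Without plasma-positive replicate 3 Lgals1 was at 0.996, and the log2 bound for Lgals3 ran from 3.55 to 5.44 with 1 library left out.

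The number of called genes, 187, was 694 with DESeq2, 442 with limma-voom, 26 and 16 with limma on log2(RPKM + 1) and log2(RPKM + 0.1), 72 with the length correction, and 66 to 203 with 1 library left out, where 203 is without plasma-negative replicate 4 and each other omission gave at most 93. With library totals only, 64 were higher and 163 lower, against 112 and 75, and the median of all genes moved to -0.11. On RPKM it moved to 0.11 and 0.16. With the replicate block 74 genes were called, and 17 with the length correction as well. Libraries with equal numbers deviated together with correlations of 0.011 to 0.031, and 1 of 4 numbers matched best with its own. With 4 numbers, this check cannot decide whether libraries with equal numbers share an animal.

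Calls in the galectin-binding list (1) were 2 with the upper quartile, the 1 CPM filter and limma-voom, 3 with DESeq2, and 0 with both RPKM fits, the length correction, the replicate block and both together, and 0 to 1 with 1 library left out. The sugar-building list (0) had 1 with totals only and limma-voom and 3 with DESeq2, and the damaged-lysosome list (0) had 2 with DESeq2. The interferon list (1) had 2 with DESeq2 and limma-voom, 0 with log2(RPKM + 0.1) and with the length correction and replicate block, and 0 to 1 with 1 library left out. The disease-associated list (3) had 6 with the upper quartile, 5 with no filter, 7 with DESeq2 and limma-voom, 1 and 0 with limma on log2(RPKM + 1) and log2(RPKM + 0.1), and 2 to 6 with 1 library left out. With the replicate block it also had 3, with Ctsl in place of Cd63. The proliferation list (3) had 1 with the replicate block, 0 with the length correction added to it and 2 to 4 with 1 library left out. The cause of these changes was not tested. Counts under 3 in a library are below what depth can show.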
